A study of Mus musculus with 23 samples.

Results

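The 7 genes described here serve the fast transmitters glutamate and GABA, and were followed across 3 regions of the mouse brain and 2 diets. Slc17a6, Slc17a7 and Slc17a8 mark neurons that release glutamate, and Slc32a1, Gad1 and Gad2 those that release GABA. Slc6a11 takes up GABA, mainly into astrocytes, and does not mark the transmitter of a neuron. They were chosen by symbol, as the rows of the deposited log2 table whose transcript carries one of these symbols on the array. The rule used no measured value, but earlier results of these data were known when the genes were chosen. All 7 genes were found, with 1 row each, among 31395 rows.

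Each of 23 Agilent arrays, read in one color, carried the RNA of 1 brain region of 1 female C57BL/6 mouse: the frontal cortex (FC), the striatum (ST) or the hypothalamus (HT). The 4 lean mice, L52, L54, L56 and L58, had standard chow (SC) for 8 weeks. The 4 obese mice, O52, O54, O56 and O58, chose freely between SC and a chocolate mixture (CM) over the same time. All mice then went through a test battery of 11 days before dissection, and they were 5 weeks old when the experiment began. In this battery, the paper states, the SC mice were also given CM for a limited time. Each group held 4 arrays, except CM FC with 3, since no FC array of O52 was analysed here. The sample labels name the HT tissue as a thalamic region, and the paper's name is used here. All values are log2 of the background-corrected, quantile-normalized intensity, so a difference of 1 is 2-fold. A level of one gene cannot be set against that of another gene on these arrays.

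Neurons that release glutamate load it into vesicles with one of the vesicular glutamate transporters. Slc17a7 (VGLUT1) is the transporter of most cortical glutamate neurons, Slc17a6 (VGLUT2) that of thalamus, hypothalamus and brainstem, and Slc17a8 (VGLUT3) occurs in sparse neurons that often release another transmitter as well. Neurons that release GABA make it from glutamate with the glutamate decarboxylases Gad1 (GAD67) and Gad2 (GAD65), and Slc32a1 (VGAT) carries it into vesicles. Nearly all striatal projection neurons are GABAergic. Slc6a11 (GAT-3) takes GABA up again from the extracellular space, mainly into astrocytes.

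The 7 rows rest on 9 probes of 60 bases, all of which passed the filter on low signals, and Slc17a8 and Slc32a1 are the averages of a pair of probes each. Positions are those of the array annotation, build mm9. Slc17a6 (NM_080853) was measured at chr7:58926067-58926126 and Slc17a7 (NM_182993) at chr7:52430841-52430900. Slc17a8 (NM_182959) was measured on the minus strand at chr10:89046159-89046218 and chr10:89037630-89037689. Slc32a1 (NM_009508) was measured at chr2:158440166-158440225 and chr2:158441324-158441383. Gad1 (NM_008077) was measured at chr2:70439699-70439758, Gad2 (NM_008078) at chr2:22549095-22549154 and Slc6a11 (NM_172890) at chr6:114199514-114199573. The probe below is the brighter one of Slc17a8. It is shown because the size of the Slc17a8 difference between regions turned on it.
Slc17a8, chr10:89046159-89046218, minus strand: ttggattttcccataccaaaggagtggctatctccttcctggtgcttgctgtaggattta

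Upstream sequences of Slc17a6 and Slc17a7 are shown because these genes of one family had opposite patterns across the regions. Each is the 250 bases before the gene start in RefSeq, build GRCm38.p6, plus strand, at chr7:51621580-51621829 for Slc17a6 and chr7:45163671-45163920 for Slc17a7. Capitals mark GGGCGG, the GC box, or its reverse complement.
Slc17a6: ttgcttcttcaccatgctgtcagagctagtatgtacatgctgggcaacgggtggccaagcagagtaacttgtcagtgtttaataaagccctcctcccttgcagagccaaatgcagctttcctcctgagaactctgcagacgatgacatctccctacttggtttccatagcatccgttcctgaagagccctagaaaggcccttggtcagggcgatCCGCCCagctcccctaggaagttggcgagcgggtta
Slc17a7: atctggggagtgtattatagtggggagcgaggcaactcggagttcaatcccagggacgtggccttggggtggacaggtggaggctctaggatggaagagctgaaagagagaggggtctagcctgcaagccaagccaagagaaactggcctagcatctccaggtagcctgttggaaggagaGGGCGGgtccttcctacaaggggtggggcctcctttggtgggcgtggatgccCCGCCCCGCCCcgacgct
RefSeq gives another start for Slc17a6, whose window held no match. The Slc17a6 window printed held 1 match and the Slc17a7 window 3, of which the last pair share 1 base. Of 32851 mouse promoter windows of this length, 32.7% held at least 1 match. Slc6a11 also had 3 matches, Gad1 had 1, and none was found in the windows of Gad2, Slc32a1 and Slc17a8. TATAAA was found in the window of Gad1 among the 7 genes, and in 12.4% of all windows. A match is a description of the letters only.

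The labelled regions were checked against lists of marker genes, each given as its mean log2 level on an array. Striatal markers (9 of 9 measured) ran from 13.92 to 14.77 on the ST arrays and from 10.03 to 12.35 elsewhere. Cortical markers (7 of 7) ran from 10.83 to 11.75 on the FC arrays and from 8.17 to 9.03 on the HT arrays. The HT arrays were high both in thalamic markers (8 of 8), at 10.72 to 12.45, and in hypothalamic markers (12 of 12), at 9.65 to 12.80. The FC arrays were at 8.26 to 8.99 and 7.77 to 8.74 on these lists. Sim1, a marker of the paraventricular hypothalamus, was not well above background on any FC array and was so on 7 of 8 HT arrays. Not every marker of this list separated the regions. Sst ran lower on HT arrays, from 12.69 to 13.58, than on FC arrays, from 13.67 to 14.70. On ST arrays it ran from 13.78 to 15.23. The medians of Pomc were 9.53 on HT, 9.25 on FC and 9.58 on ST arrays. Those of Agrp were 6.79, 6.40 and 6.49 in this order, and those of Nr5a1 8.40, 8.10 and 8.11.

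Single arrays stood apart. Among the ST arrays, SC L52 had a hypothalamic marker mean of 10.98, inside the range of the HT arrays, with Hcrt (orexin) at 15.45. SC L52 and SC L56 also had the highest thalamic marker means of the ST arrays, at 10.20 and 9.90. SC L54 and SC L58 had the highest cortical marker means among the ST arrays, at 10.91 and 10.06. CM O58 had the lowest, 8.08, and a choroid plexus marker mean of 13.32, against 7.86 to 9.69 on the other ST arrays. Among the FC arrays, SC L54 had the lowest cortical mean, 10.83, and the highest value of Trh, 12.17. The HT arrays were not uniform either. Of these, SC L54 had the lowest hypothalamic mean, 9.65, and the highest striatal mean, 11.71. SC L58 had the lowest thalamic mean, 10.72, and the highest hypothalamic mean, 12.80. In tissue pieces of this kind a change in the number of cells of a type and a change in RNA per cell cannot be told apart.

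The arrays lay on 3 slides, and the slide is confounded with the groups. On CM each region had a slide to itself, with ST on slide 1, HT on slide 2 and FC on slide 3. The SC arrays of each region were spread over 2 or 3 slides. No slide held FC arrays of both diets. Results are therefore also given from a fit that adds slide as a fixed term and, where a slide held both groups, within it.

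The 7 genes fell into separate regional patterns, shown in the plot of levels by region and diet. Slc17a6, Slc17a8 and Slc6a11 were highest in HT, Slc17a7 was highest in FC, and Slc32a1, Gad1 and Gad2 had their highest means in ST.

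**Figure D1:**
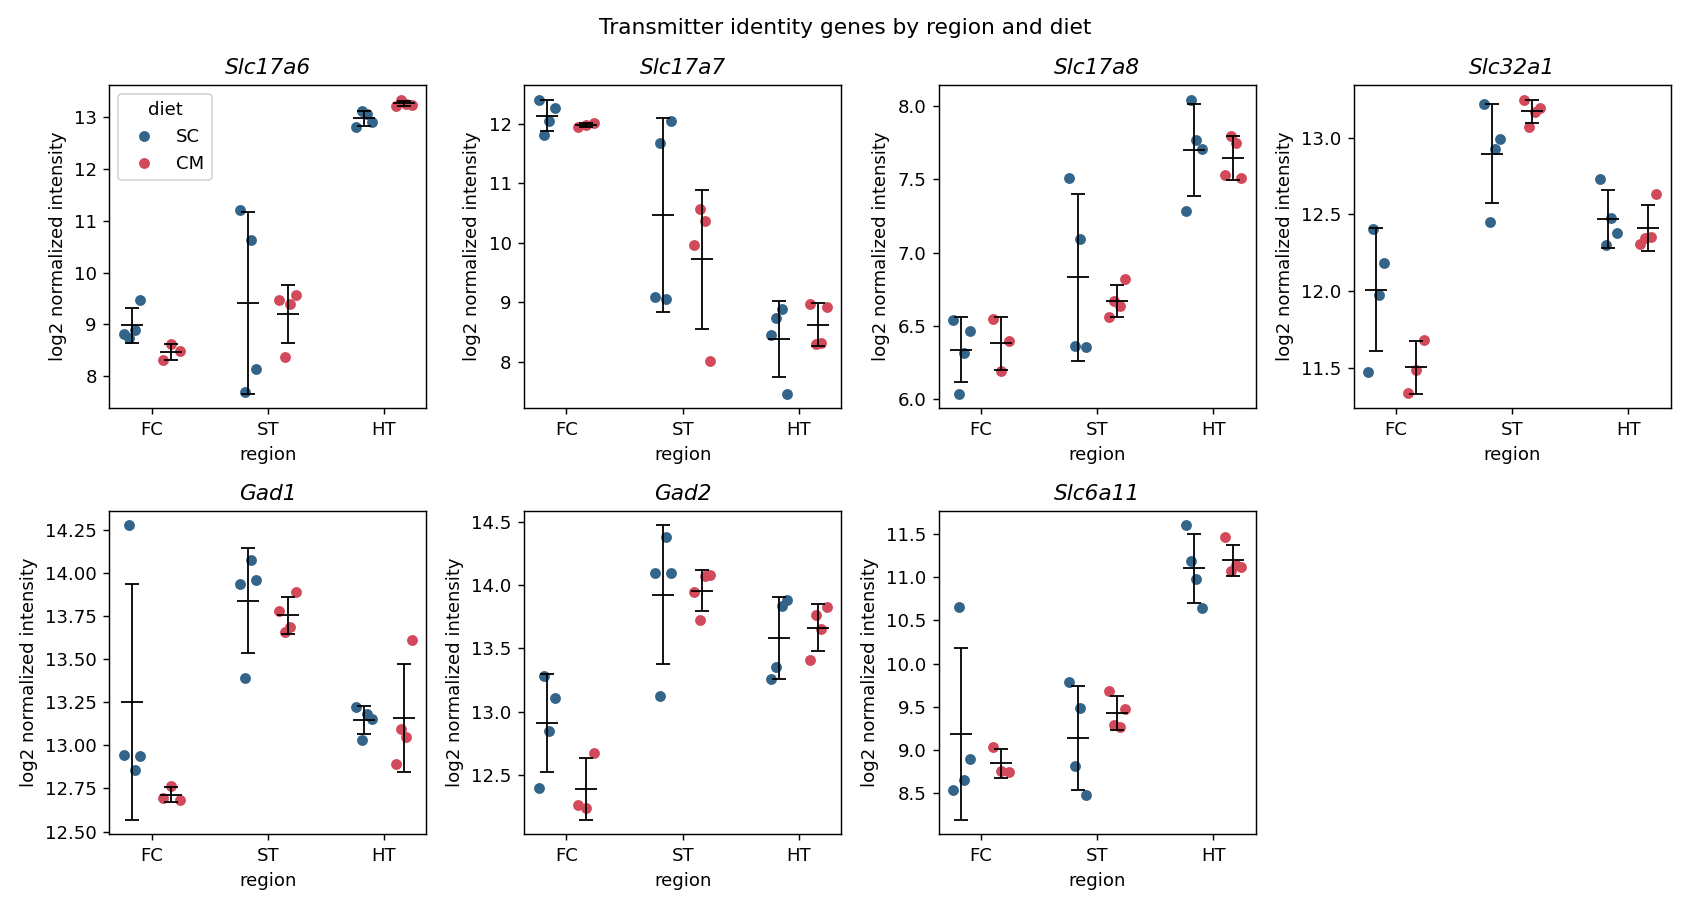
Log2 normalized intensity of the 7 genes on each of the 23 arrays, by region (x axis) and diet (SC blue, CM red); points are arrays, and black marks and bars are the group mean ± SD (n = 4, and 3 for CM FC). Slc17a6 and Slc17a7 spread far more among the ST arrays than among the FC or HT arrays, and single SC FC points stand far above the rest for Gad1 and Slc6a11.

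Slc17a6 separated HT from both other regions without overlap. On the SC HT arrays its log2 level was 12.80 in L52, 13.12 in L54, 13.06 in L56 and 12.90 in L58, and on the CM HT arrays it was 13.22 in O52, 13.33 in O54, 13.26 in O56 and 13.23 in O58. On the SC FC arrays it was 8.81, 8.75, 8.89 and 9.47 in the same order of mice, and on the CM FC arrays 8.31 in O54, 8.63 in O56 and 8.48 in O58. The ST arrays had no common level. On SC they were at 11.20 in L52, 7.70 in L54, 10.62 in L56 and 8.14 in L58, and on CM at 9.47 in O52, 8.38 in O54, 9.39 in O56 and 9.58 in O58. L52 and L56, the SC ST arrays with the high thalamic marker means, were the high ones, and the part of that tissue in the level was not tested.

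The difference between HT and FC in Slc17a6 was 3.99 ± 0.44 (SE) on SC, 15.9-fold, with a limma adjusted p of 9.87e-07. On CM it was 4.78 ± 0.30, 27.5-fold, adjusted p = 5.66e-11. Between HT and ST it was 3.30 ± 0.47 on SC (adjusted p = 2.94e-05) and 4.05 ± 0.31 on CM (adjusted p = 1.34e-09). These fits weight the arrays, so that a fitted difference can depart from that of the plain means. With a fixed slide term all 4 calls held, at 5.45, 4.09, 4.08 and 5.06 in this order. HT was above FC in 7 of 7 mice with both regions, by 3.43 to 5.02. Between ST and FC the difference was 0.69 ± 0.51 on SC (adjusted p = 0.406) and 0.73 ± 0.32 on CM (adjusted p = 0.0522), and neither passed. Without the ST array of L54 the SC difference was 1.496 (adjusted p = 0.00353), without that of L56 it was -0.85 and without that of L52 -0.09, so single ST arrays set its size and its sign.

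Slc17a7 was the reverse. On the SC FC arrays it was at 12.40 in L52, 11.82 in L54, 12.04 in L56 and 12.26 in L58, and on the CM FC arrays at 11.93 in O54, 11.97 in O56 and 12.004 in O58. On the SC HT arrays it was at 8.44, 8.74, 8.88 and 7.46 in L52, L54, L56 and L58, and on the CM HT arrays at 8.96, 8.30, 8.31 and 8.92 in O52, O54, O56 and O58. FC and HT did not overlap. The SC ST arrays split into a low pair, L52 at 9.08 and L56 at 9.05, and a high pair, L54 at 11.68 and L58 at 12.05. The CM ST arrays were at 9.95 in O52, 10.56 in O54, 10.36 in O56 and 8.01 in O58. L58 lay inside the FC range and L54 just under it, and these were the ST arrays with the highest cortical marker means. O58, the ST array with the lowest cortical mean, was the lowest in Slc17a7.

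Slc17a7 was lower in HT than in FC by a log2 difference of -3.56 ± 0.56 on SC (11.8-fold, adjusted p = 4.86e-05) and of -3.42 ± 0.38 on CM (10.73-fold, adjusted p = 1.78e-07). It was lower in 7 of 7 mice. Between ST and FC the difference was -2.07 ± 0.66 on SC, with an adjusted p of 0.0386 that missed the threshold of 0.01, and -2.06 ± 0.40 on CM, with an adjusted p of 0.000198. The SC difference was -2.84 (adjusted p = 0.000998) without the ST array of L54 and -0.69 (adjusted p = 0.543) without that of L56. When slide was fitted as a fixed term, the CM difference between ST and FC became 0.27 (adjusted p = 0.939) and that between HT and FC -1.79 (adjusted p = 0.193), while the SC difference between HT and FC was -5.55 and passed. Within slide 1, which held 1 SC ST and 3 SC FC arrays, ST was lower by a difference of -2.96, and within slide 2, with 2 and 1 arrays, by -2.04. Within slide 3 the SC ST array of L58 differed from the 3 CM FC arrays by 0.08. Between HT and ST the CM difference was -1.36 ± 0.40 (adjusted p = 0.00614), and it passed in 13 of 25 alternative settings under the same threshold, with the slide fixed not among them (-2.06, adjusted p = 0.0563). On SC that difference was -1.49 ± 0.60 (adjusted p = 0.0829).

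**Figure D2:**
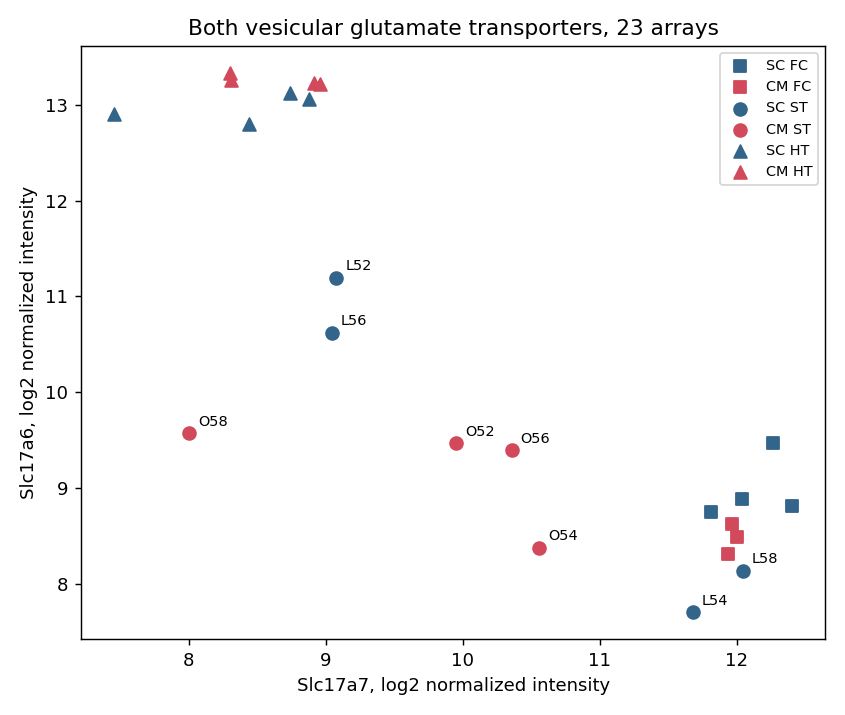
Slc17a6 (y axis) against Slc17a7 (x axis), both in log2 normalized intensity, on the 23 arrays; symbols give the region and colors the diet, and the ST arrays carry the mouse name. FC and HT arrays lie in opposite corners, and the ST arrays lie spread between them, with L54 and L58 near the FC arrays in Slc17a7.

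Across the 8 ST arrays the Pearson correlation of Slc17a6 and Slc17a7 was -0.79, and that of Slc17a6 and Slc17a8 was 0.92. The arrays share slides and dissection, and these values only describe the spread.

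Slc17a8 was highest in HT, but its row averages probes that disagreed. The row was at 7.28, 8.04, 7.77 and 7.70 on the SC HT arrays of L52, L54, L56 and L58, and at 7.53, 7.79, 7.75 and 7.51 on the CM HT arrays of O52, O54, O56 and O58. On the FC arrays it ran from 6.04 to 6.55, with no overlap with HT. On the ST arrays it ran from 6.36 to 7.51, where the highest, SC L52, lay inside the HT range. The row's difference between HT and FC was 1.41 ± 0.19 on SC (adjusted p = 7.8e-06) and 1.31 ± 0.13 on CM (adjusted p = 2.48e-08).

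The probe printed above was well above background on all 23 arrays, at 10.72 to 11.18 on HT arrays, 7.61 to 8.38 on FC arrays and 7.58 to 9.13 on ST arrays. The second probe was not well above background on any FC or HT array and was so on 5 of 8 ST arrays. Its range was 3.82 to 4.90 on HT arrays, 4.01 to 4.93 on FC arrays and 4.48 to 5.89 on ST arrays. Taken alone, the brighter probe gave a difference between HT and FC of 3.13 ± 0.19 on SC and of 2.63 ± 0.13 on CM, with adjusted p of 1.29e-09 and 3.45e-12. These are 8.74-fold and 6.21-fold, against 2.65-fold and 2.49-fold for the averaged row. Between HT and ST the averaged row gave 0.85 ± 0.20 on SC, under 2-fold, and 1.03 ± 0.13 on CM. The brighter probe gave 2.41 ± 0.20 and 3.08 ± 0.14. The row's CM call between HT and FC did not pass with the slide fixed, at 1.05 (adjusted p = 0.0432).

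Slc32a1, the vesicular GABA transporter, was highest in ST. Its ST levels were 13.22, 12.45, 12.92 and 12.99 on SC in L52, L54, L56 and L58, and 13.25, 13.07, 13.17 and 13.19 on CM in O52, O54, O56 and O58. Its HT levels ran from 12.30 to 12.73 over 8 arrays. Its FC levels were 11.47, 12.41, 11.97 and 12.18 on SC in L52, L54, L56 and L58, and 11.34, 11.49 and 11.68 on CM in O54, O56 and O58. ST and FC did not overlap, while HT met ST through the SC ST array of L54 and met FC through the SC FC array of the same mouse.

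ST exceeded FC in Slc32a1 by 0.78 ± 0.18 on SC (adjusted p = 0.00739, under 2-fold) and by 1.68 ± 0.11 on CM (3.21-fold, adjusted p = 2.73e-09). ST was above FC in 7 of 7 mice and above HT in 8 of 8. HT differed from ST by -0.78 ± 0.11 on CM (adjusted p = 4.81e-06), also under 2-fold, and by -0.21 (adjusted p = 0.511) with the slide fixed. Under the fixed slide term the difference between ST and FC was 1.18 on SC (adjusted p = 0.000554) and 1.31 on CM (adjusted p = 0.0218), so the call moved from CM to SC. Within slides 1 and 2 ST exceeded FC on SC by 1.03 and 1.21. Both probes of Slc32a1 were well above background on all 23 arrays, from 14.92 to 16.72 for one and from 7.75 to 9.83 for the other. Their group means had the same order of regions on each diet. They differed on the SC ST array of L58. One was at 16.17, inside its HT range of 15.77 to 16.35, and the other at 9.82, above its highest HT value of 9.11.

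Gad2 and Gad1, the decarboxylases, had the same order of regions as Slc32a1 on CM. Gad2 was at 14.09, 13.12, 14.38 and 14.10 on the SC ST arrays of L52, L54, L56 and L58, and at 13.95, 13.73, 14.07 and 14.08 on CM. Its HT levels ran from 13.26 to 13.88 over 8 arrays. On FC it was at 12.40, 13.29, 12.85 and 13.11 on SC and at 12.26, 12.24 and 12.67 on CM. The ST arrays lay above all FC arrays except for SC L54, the ST array with the highest cortical mean. The difference between ST and FC was 1.03 ± 0.27 on SC (adjusted p = 0.0152) and 1.59 ± 0.17 on CM (adjusted p = 1.66e-07). HT exceeded FC on CM by 1.31 ± 0.16 (adjusted p = 4.99e-07) and on SC by 0.66 ± 0.23 (adjusted p = 0.0262). With the slide fixed the CM values were 1.17 (adjusted p = 0.158) for ST against FC and 1.29 (adjusted p = 0.0241) for HT against FC. The SC difference between ST and FC was 1.37 (adjusted p = 0.000143) without the ST array of L54 and 0.39 (adjusted p = 0.403) without that of L56.

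Gad1 was at 13.94, 13.39, 14.08 and 13.96 on the SC ST arrays of L52, L54, L56 and L58, and at 13.78, 13.66, 13.69 and 13.89 on CM. On FC it was at 12.94, 14.28, 12.86 and 12.94 on SC, and at 12.70, 12.76 and 12.68 on CM. The SC FC array of L54 was the highest of all 23 arrays, with the next SC FC arrays at 12.94. HT levels ran from 12.89 to 13.61. On CM the difference between ST and FC was 1.02 ± 0.16 (2.03-fold, adjusted p = 2.07e-05), just past the 2-fold threshold, and it fell under the threshold without the ST array of O52 or of O58, at 0.9999 and 0.98. With the slide fixed it was 0.92 (adjusted p = 0.312). On SC it was 0.68 ± 0.26 (adjusted p = 0.087). Without the 4 arrays that stood apart on markers (the ST arrays of L52, L54 and O58 and the FC array of L54), it was 1.12 on SC, and 0.99 on CM.

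Slc6a11, the astrocytic GABA transporter, was highest in HT. It was at 11.60, 11.18, 10.98 and 10.64 on the SC HT arrays of L52, L54, L56 and L58, and at 11.46, 11.07, 11.14 and 11.12 on CM. Its ST levels ran from 8.48 to 9.79. On FC it was at 8.54, 10.66, 8.65 and 8.90 on SC and at 9.04, 8.76 and 8.75 on CM. The FC array of L54 reached the lowest HT array, and no other FC or ST array did. HT exceeded FC by 1.95 ± 0.31 on SC (3.87-fold, adjusted p = 5.2e-05) and 2.33 ± 0.21 on CM (5.04-fold, adjusted p = 9.37e-09). HT exceeded ST by 1.84 ± 0.33 on SC and 1.74 ± 0.22 on CM, with adjusted p of 0.000359 and 1.26e-06. All 4 calls held in every alternative setting that was run. The astrocyte marker mean (6 of 6) ran from 11.88 to 12.30 on HT arrays and from 11.44 to 11.99 on FC and ST arrays, a smaller spread than that of Slc6a11, and its part was not tested.

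**Figure D3:**
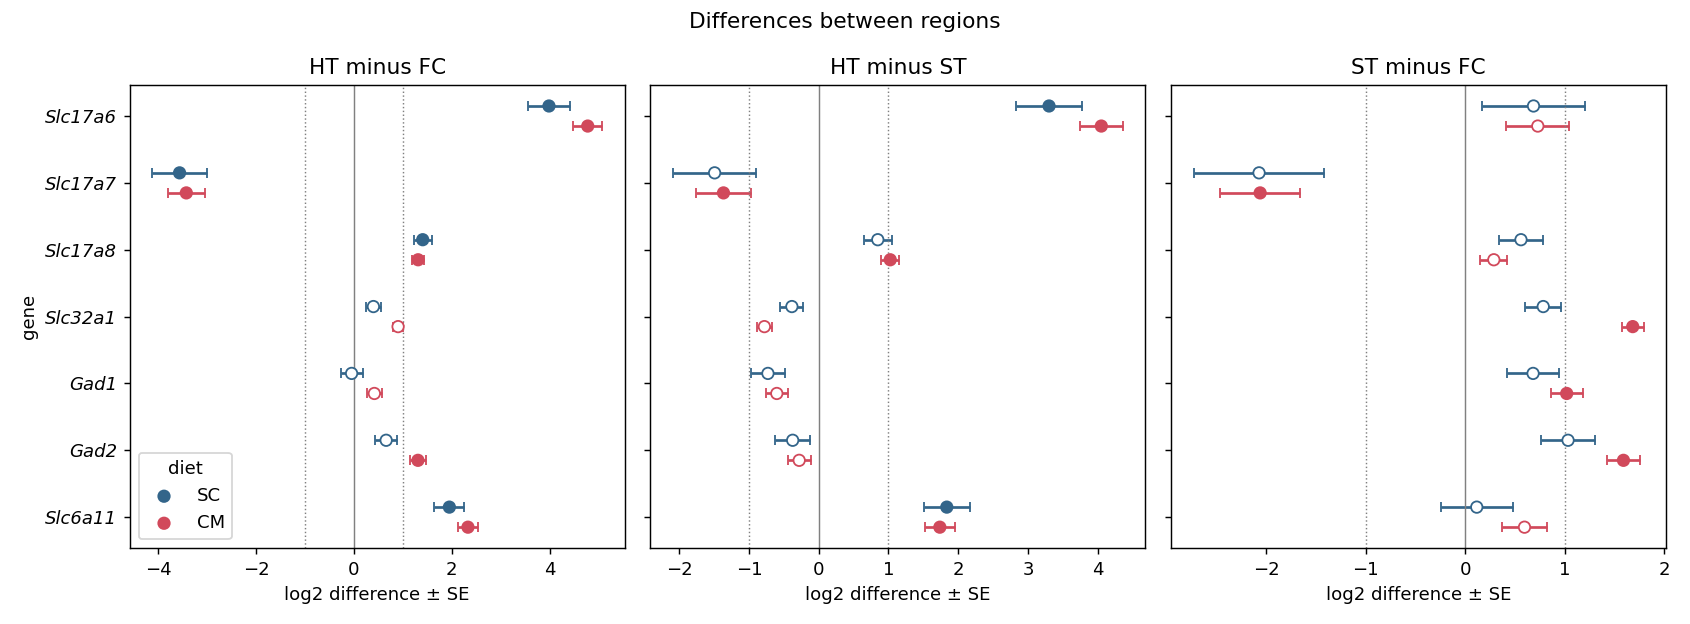
Log2 differences between regions for the 7 genes, with the limma SE, in 3 panels (HT minus FC, HT minus ST, ST minus FC) and by diet (SC blue, CM red); filled points passed 2-fold and an adjusted p under 0.01, and dotted lines mark 2-fold. Slc17a6 and Slc17a7 lie on opposite sides of 0 in all panels, and no point is filled for ST minus FC on SC.

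Counted over the 7 genes, with the threshold of 2-fold and an adjusted p under 0.01, HT against FC on SC gave 3 higher and 1 lower, where 4.38% and 4.0% of all rows were called. HT against FC on CM gave 4 higher and 1 lower, beside 5.01% and 4.34%. HT against ST on SC gave 2 higher and 0 lower, beside 1.95% and 2.83%. HT against ST on CM gave 3 higher and 1 lower, beside 4.37% and 4.37%. ST against FC on CM gave 3 higher and 1 lower, beside 4.05% and 5.40%. ST against FC on SC gave 0 in either direction, beside 1.23% and 0.860%, and 5 of the 7 genes and 9097 of 31395 rows had an unadjusted limma p under 0.05 there. With the slide fixed, 0 of 31395 rows were called for ST against FC on CM and 756 on SC. The median absolute log2 difference of the 7 genes between HT and FC on SC was 1.41, against 0.32 over all rows.

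Ordered by group mean, several neighbours did not differ beyond their spread. For Slc17a6 both HT groups stood above all others, and each ST group overlapped SC FC. For Slc17a7 each neighbour in the order overlapped the next. For the averaged Slc17a8 row, CM HT overlapped SC ST, and CM ST lay above CM FC without overlap by 0.29, whereas the brighter probe gave -0.45 there (adjusted p = 0.00983). For Slc32a1 and Gad2 each neighbour overlapped the next. For Gad1 the lowest group, CM FC, lay under SC HT without overlap, and the others overlapped. For Slc6a11 the HT groups lay above CM ST without overlap, and the other groups overlapped.

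The diets were compared within each region, to ask whether 8 weeks of free access to chocolate moved these genes. SC mice also had limited access to CM in the test battery, so the contrast is not with mice that never had chocolate. In FC, where a call needed 2-fold and an adjusted p under 0.01, 0 of 7 genes were called, beside 2.94% of all rows. In ST, with the same threshold, 0 of 7 were called, beside 0.602%. In HT, where a call needed 1.5-fold and an adjusted p under 0.05, 0 of 7 were called, beside 0.178%. At an adjusted p under 0.05 and any fold, 2 of 7 were lower on CM in FC, Slc32a1 and Gad2, beside 28.6% of all rows, 0 of 7 in ST beside 9.82%, and 0 of 7 in HT beside 0.430%. At an unadjusted limma p under 0.05 the counts were 3, 1 and 0 of 7, beside 12544, 8006 and 4154 of 31395 rows.

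In FC the 3 GABA synthesis and loading genes had lower means on CM, as did Slc17a6, Slc17a7 and Slc6a11. A lower mean was therefore not particular to the 3 genes. The 2 of 7 genes with an adjusted p under 0.05 stood beside 28.6% of all rows. Slc32a1 differed by -0.57 ± 0.14 (1.49-fold, adjusted p = 0.00475), Gad2 by -0.60 ± 0.21 (1.51-fold, adjusted p = 0.0391) and Gad1 by -0.47 ± 0.20 (adjusted p = 0.0884). The diets overlapped for Slc32a1 and Gad2, because the SC array of L52 lay among the CM arrays. They did not overlap for Gad1, where the lowest SC array was at 12.86 and the highest CM array at 12.76. With the slide fixed the differences were -0.24, -0.17 and -0.35, with adjusted p of 0.937, 0.987 and 0.952, in a fit that called 0 of 31395 rows between the diets in FC. Without the 4 arrays that stood apart on markers they were -0.47, -0.50 and -0.18, with adjusted p of 0.0379, 0.103 and 0.442. The SC array of L52 was the one FC array on slide 2. No slide held FC arrays of both diets, so diet and slide cannot be told apart for any FC array.

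Striatal markers moved in part with Slc32a1 and Gad2 over the FC arrays. Their mean on the SC FC arrays was 10.09 in L52, 11.80 in L54, 12.35 in L56 and 12.25 in L58, and on the CM FC arrays 10.03 in O54, 10.38 in O56 and 12.28 in O58. The 3 arrays with the lowest striatal mean, L52, O54 and O56, were also the 3 lowest in Slc32a1 and in Gad2. O58 had a striatal mean above those of L54 and L58. Its Slc32a1 and Gad2, at 11.68 and 12.67, lay under those of L54, L56 and L58. Among the CM FC arrays, O58 was the highest in the striatal mean and in both genes. L54 was the highest in both genes, at a striatal mean of 11.80. Gad1 was lowest in O58, at 12.68, an array with a high striatal mean, and was at 12.94 in L52. The part of the markers in the difference was not tested.

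**Figure D4:**
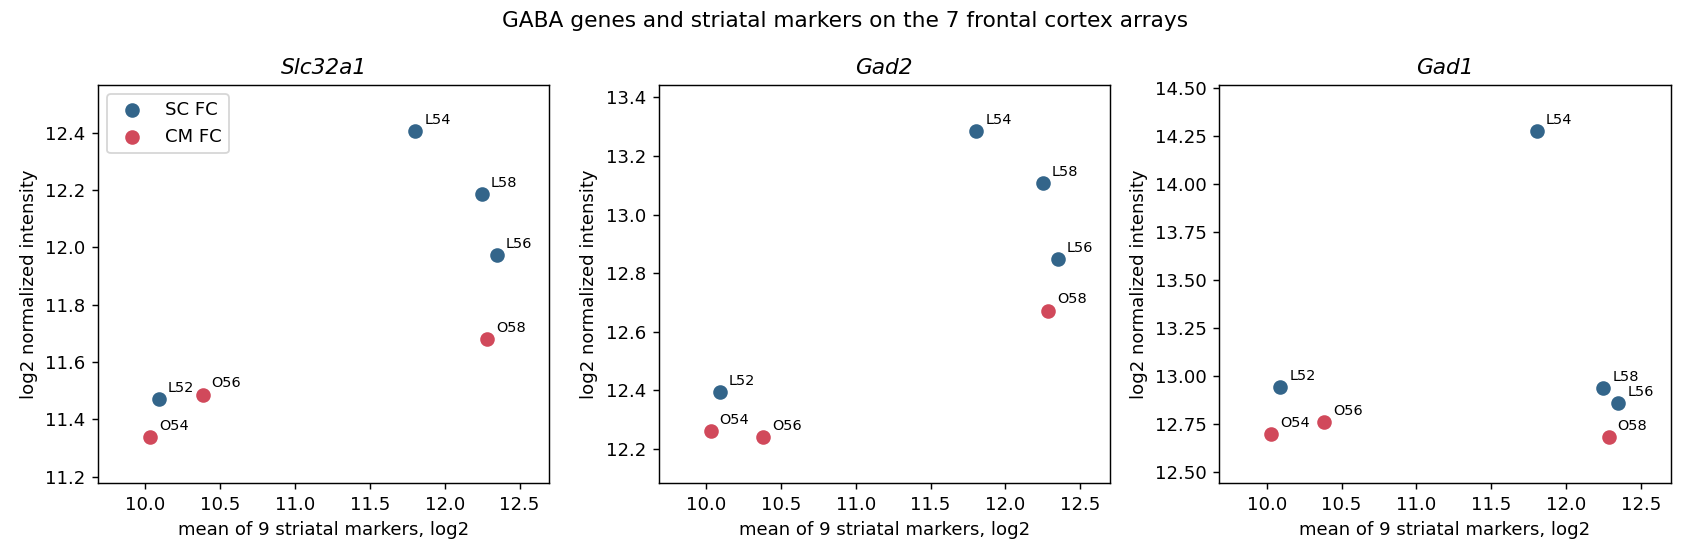
Log2 normalized intensity of Slc32a1, Gad2 and Gad1 (y axes) against the mean log2 level of 9 striatal markers (x axes) on the 7 FC arrays, named by mouse (SC blue, CM red). L52, O54 and O56 have the lowest striatal means, from 10.03 to 10.38, and the lowest levels of Slc32a1 and Gad2, and L54 stands apart in Gad1.

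The other genes in FC did not reach an adjusted p under 0.05. Slc17a6 differed by -0.53 ± 0.40 (adjusted p = 0.344) although its diets did not overlap, and by 1.003 with the slide fixed (adjusted p = 0.892). The 6 groups share one estimate of the spread in these fits. The SD of Slc17a6 was 0.33 on SC FC and 0.16 on CM FC, against 1.75 on SC ST. Slc17a7 differed by -0.14 ± 0.51, Slc17a8 by 0.04 ± 0.17 and Slc6a11 by -0.30 ± 0.28, with adjusted p of 0.861, 0.888 and 0.456. The brighter Slc17a8 probe differed by 0.45 ± 0.17 (adjusted p = 0.0601).

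In ST the largest of the 7 differences was that of Slc17a6, -0.48 ± 0.44 (adjusted p = 0.528), set by the SC arrays that ranged from 7.70 to 11.20. Without the SC array of L54 it was -1.29 (adjusted p = 0.00563), without that of L56 it was 1.04 and without that of L52 0.29. Slc32a1 differed by 0.33 ± 0.15 (adjusted p = 0.19), and the remaining genes by -0.23 to 0.18. Slide 1 held all CM ST arrays and the SC ST array of L52, and within it Slc17a6 was lower on CM by a difference of -1.99 and Slc32a1 by -0.05. Slc17a8 differed by -0.23 ± 0.19 as averaged (adjusted p = 0.461) and by -0.72 ± 0.19 in its brighter probe (1.64-fold, adjusted p = 0.0218).

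In HT the 7 differences ran from -0.07 to 0.27, with adjusted p from 0.796 to 0.998. Slc17a6 had the highest, 0.27 ± 0.33, and here all CM arrays lay above all SC arrays. On slide 2, which held all CM HT arrays and the SC HT array of L58, the difference was 0.36, and in the fit with slide as a fixed term it was -0.36 (adjusted p = 1).

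The diet effect was also compared between regions with interaction terms at an adjusted p under 0.05. One of 7 genes was called for FC minus ST, beside 30.1% of all rows. This was Slc32a1, with -0.90 ± 0.21 (adjusted p = 0.00345), the difference between a lower level on CM in FC and a higher one in ST. It was -0.13 (adjusted p = 1) with the slide fixed, with the slide as a random block -0.69 (adjusted p = 0.121), and without the 4 arrays that stood apart on markers -0.68 (adjusted p = 0.0925). The brighter Slc17a8 probe gave 1.16 ± 0.26 for FC minus ST (adjusted p = 0.00249), against 0.27 for the averaged row. For FC minus HT 0 of 7 were called, beside 20%, and Slc32a1 was closest at -0.50 ± 0.19 (adjusted p = 0.0604). For ST minus HT 0 of 7 were called, beside 0% of all rows, where 4658 of 31395 rows and 0 of the 7 genes had an unadjusted limma p under 0.05.

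Other genes of the same pathways were read from fixed lists. None of their measured genes was called between the diets in any region. Of the 5 genes for GABA uptake and breakdown, Abat (GABA transaminase) was higher in HT than in FC on CM, by 1.22 ± 0.09 (adjusted p = 5.15e-10), and no other was called between regions. Of the 4 glutamate uptake genes, Slc1a2 (GLT-1), the main astrocytic transporter, was lower in HT than in FC by a difference of -1.01 on SC and on CM. Slc1a6 (EAAT4) was higher in HT than in ST by 1.45 on SC and 1.72 on CM, and higher than in FC by 1.30 on CM. None of the 4 measured other members of the Slc17 family (of 6 listed) was called between regions. Of all rows, 0.860% to 5.40% were called in a given direction of a region comparison. In the interaction terms Aldh5a1 (succinic semialdehyde dehydrogenase) was lower for FC minus ST and for FC minus HT, at -0.51 and -0.42, with adjusted p of 0.012 and 0.026. It was the 1 of 5 genes of its list called in each, beside the 30.1% and 20% of all rows. Gls2 and Glul were higher for FC minus ST, at 0.50 and 0.38, and the glutamine carriers Slc38a1 and Slc38a2 lower for FC minus HT, at -0.24 and -0.59, which made 2 of 9 genes of glutamate and glutamine metabolism in each term. With the slide fixed, 0 of 31395 rows were called in either term. Abat, Slc1a2, Slc1a6 and the genes of the interaction terms were named after their values were seen, from the few that were called.

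Of 6 transcription factors of the GABAergic lineage, 1 was higher in ST than in FC on SC and 2 on CM, and 2 were lower in HT than in ST on SC and 3 on CM. Of all rows, 1.23% and 4.05% were higher in ST than in FC and 2.83% and 4.37% lower in HT than in ST. Dlx6 was higher in ST than in both other regions on both diets. ST exceeded FC by 1.25 ± 0.28 on SC and 2.02 ± 0.17 on CM, and HT differed from ST by -1.55 ± 0.26 and -2.18 ± 0.17. All 7 factors of cortical glutamate neurons were lower in HT than in FC on both diets and lower in ST than in FC on CM. The shares of all rows were 4.0% and 4.34% for HT below FC and 5.40% for ST below FC on CM, where 0 of 31395 rows passed with the slide fixed. Mef2c was the one called in all 6 comparisons of regions, at -3.01 ± 0.27 for HT against FC on SC and -1.58 ± 0.31 for ST against FC on SC. Emx1 and Fezf2 were lower in HT than in both other regions on both diets, with differences from FC on CM of -5.07 ± 0.32 and -4.39 ± 0.33.

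The rows with the most similar profile over the 23 arrays were listed for each gene, as a description. For Slc17a6 they were Ece2 (Pearson's r = 0.981), Pcbd1 (0.980) and Tmem22 (0.978). For Slc17a7 they were Cdsn (0.970), Ttc9b (0.965) and Olfm1 (0.965). For Slc17a8 they were Foxb1 (0.943), Slc17a6 itself (0.941) and Magel2 (0.937). For Slc32a1 they were Lrrc1 (0.972), Cacng4 (0.969) and Sema3f (0.958). For Gad1 they were Peli2 (0.936), Ppp1cc (0.930) and Sp9 (0.916). For Gad2 they were Efnb3 (0.941), Klhl13 (0.940) and Nfatc2 (0.934). For Slc6a11 they were Sash1 (0.964), Zic1 (0.961) and Vash2 (0.959). Among the 7 genes, Slc32a1 and Gad2 had r = 0.90, Slc6a11 and Slc17a6 0.90, and Slc17a6 and Slc17a7 -0.84. All arrays share 3 regions, and most of each value is the difference between regions.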

How the data were processed

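Tissue RNA was labeled with Cy3 and hybridized to Agilent arrays of 62976 spots, 36432 to 42261 of them well above background. The scanner files deposited by the authors hold spot intensities (Feature Extraction 10.7.3.1), and their table holds log2 values that they background-corrected (normexp), quantile-normalized, filtered and averaged per transcript. The deposited flags of spots well above background were used as well. The rebuilt table differed from the deposited one by at most 5e-09. A probe was kept if its log2 signal passed 1.1 times the 95th percentile of 308 negative controls in at least 4 arrays.

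The 6 group means were fitted to all 23 arrays in R 4.3.3 with limma 3.58.1 and statmod 1.5.0, with array weights (0.222 to 2.74) and a random mouse block (correlation -0.0398), after the study's methods. Regions of 1 mouse are paired by the mouse. Deviations of same-mouse arrays correlated at a median of 0.03 over 22 pairs. P-values were adjusted over 31395 rows (Benjamini-Hochberg). Of the weight estimators, the gene-by-gene one was a choice made with values already seen. The model was tested on simulated data. Promoter windows are from RefSeq.

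The genes and lists were chosen with earlier results of these data known. Named by rule are the 7 genes, the 3 most similar rows a gene, and marker genes by list. The rule also names list genes called between diets, or between one region and both others on both diets. Abat, Slc1a2, Slc1a6 and the list genes of the interaction terms fall outside this rule and were named after their values were seen. Alternatives covered the slide, blocks, weights, signal, offset, scaling, filter, averaging, thresholds and each array. The number of arrays limits the precision, and separate mice are the replicates. One result of the pathway lists is not reported here.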

Additional observations from a re-analysis of the deposited data

Results flagged for a closer look

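In 4 cases a value lay far from the other arrays of their group of 4 by Dixon's test, of 35 groups tested, where chance gives about 1 in 20. They were Gad1 at 14.28 and Slc6a11 at 10.66 on the SC FC array of L54, where the nearest SC FC arrays were at 12.94 and 8.90. Slc17a6 was at 8.38 on the CM ST array of O54, with the nearest at 9.39, and Slc32a1 at 12.63 on the CM HT array of O58, with the nearest at 12.35. The diet effect of Slc32a1 differed between FC and ST by -0.90 in the interaction term (adjusted p = 0.00345, limma), a difference that did not pass with the slide as a block.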

How the results depend on the processing

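Of the calls between HT and the other regions, those of Slc17a6 and Slc6a11 held in every alternative that gave a test. Leaving out each array in turn, the number of the 7 genes called ran from 0 to 0 for the diets in FC and in HT, 0 to 1 in ST, 5 to 5 and 4 to 4 for HT against FC on CM and SC, 2 to 4 for HT against ST on CM and on SC, 3 to 4 and 0 to 3 for ST against FC on CM and SC, and 1 to 3, 0 to 1 and 0 to 1 for the interactions of FC with ST, FC with HT and ST with HT. The ST arrays of L54 and L56 gave the extremes for comparisons that use the SC ST group. The low count of 2 for HT against ST on CM came without the ST array of O52 or the HT array of O54 or O56, and the 1 call for the interaction of FC with HT without the FC or HT array of L52 or the FC array of O58.

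Fitting slide as a fixed block gave counts of 0 for ST against FC on CM, 2 for it on SC, 3 for HT against FC on CM and 0 for the interaction of FC with ST, where 0, 756, 1674 and 0 of 31395 rows were called, and Slc17a7 in ST against FC on CM turned from -2.06 to 0.27. With the slide as a random block, 2 genes were called for ST against FC on CM and 0 for the interaction of FC with ST. With the replicate block by number or the mouse as a fixed block, 1 gene was called for ST against FC on SC. With the mouse fixed, 2 were called for HT against ST on CM and 2 for the interaction of FC with HT. Leaving the replicate block out changed no call. By their labels, the numbers shared by the diets name different mice and do not pair them. The deviations of same-numbered arrays correlated at -0.28 to 0.12 over 11 pairs, and those of same-mouse arrays at -0.48 to 0.17 over 22 pairs. These correlations were alike and cannot show by themselves whether arrays are paired.

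Without array weights 2 were called for HT against ST on CM and 1 for ST against FC on SC, beside 2616 and 732 of 31395 rows. REML weights and an offset of 50 also gave 1 for ST against FC on SC. The offset of 50 gave 2 for the interaction of FC with ST and 1 for that with HT, the brightest probe 2 for the former, and fits of only the groups compared 1 for the latter. Mean signals brought Gad1 in ST against FC on CM and Slc17a8 in HT against ST on CM just under 2-fold (0.998 and 0.997), processed signals took the latter to 0.58, and without a filter Slc17a7 in HT against ST on CM missed (adjusted p = 0.0185). At 1.5-fold and an adjusted p under 0.1, 1 gene was called between diets in FC, 5 for HT against ST on SC and 4 for ST against FC on SC. At an adjusted p under 0.05 and any fold these were 2, 4 and 3, the first beside 28.6% of all rows. At an unadjusted limma p under 0.05, 10357 of 31395 rows passed for HT against ST on SC. For ST against FC on SC 9097 did. Where a count under an alternative setting stands without a number or share of all rows, an excess over all rows cannot be read from it. Without the 4 arrays that stood apart on markers, an alternative chosen after seeing the data, 0 were called for the interaction of FC with ST. The causes of these changes were not tested, apart from the arrays or thresholds the settings themselves name. Quantile normalization within each region was run for the diets and interactions only, since it removes differences between regions.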
